A study of Mus musculus with 2 samples.

Results

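The barcodes described here were chosen from single-cell RNA sequencing of mouse MC38 tumors by their fibroblast transcripts. A kept barcode had at least 500 detected genes and at most 20% of its unique molecular identifiers (UMIs, counted transcript molecules) from mitochondrial genes. From these, the rule took barcodes in which Col1a2 (ENSMUSG00000029661) and Dcn (ENSMUSG00000019929) together made up at least 0.1% of UMIs. It also asked that Ptprc, Tyrobp, Fcer1g and Cd3e, which mark leukocytes, stay under 0.03%, with at most 1 UMI of the endothelial genes Cdh5 and Cldn5 and at most 2 UMIs of the pericyte genes Rgs5 and Higd1b. The rule took 1191 of 14039 kept barcodes in the untreated library and 4588 of 13963 in the MSA-2 library, which is 5779 of 28002 in all. These measured values chose the members, so the levels of the rule genes are a description and support nothing. The working label was tumor fibroblasts. Of the 5779 members 812 had Col1a2 at 0.1% of UMIs or above. In the other 4967 Col1a1, a collagen gene that the rule did not use, stood at 105 CPM (UMIs of a gene scaled to the same total in each library) untreated and 79.4 CPM with MSA-2, against 15176 and 7330.5 CPM in the 812, so by this marker most members went against the working label. The members are therefore called by their genes, Col1a2-high for those 812 and Dcn-only for the other 4967, a split chosen after the values were seen.

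The study injected MSA-2, a small-molecule agonist of the innate immune adaptor STING, into subcutaneous tumors of MC38, a mouse colon carcinoma line, and sequenced dissociated tumors on a droplet platform. Both groups are described with 3 injections at intervals of 3 days and collection on day 7, with tumors of 3 mice pooled into 1 library per group. The untreated group is labelled as an untreated negative control, while the series design names a vehicle of saline with 10% DMSO. In the study's methods the control tumors are called saline-treated, so what the controls received is not settled. The study's methods give C57BL/6 mice of both sexes for its MC38 tumors and an age of 6 to 8 weeks, without a separate statement for the sequenced mice. Neither group is labelled with a genetic alteration. The files held 14386 barcodes and 198135335 UMIs for the untreated library, and 14617 barcodes and 204387165 UMIs for the MSA-2 library. The methods also say that cells were sorted, without the sorted population, and call the sequenced cells immune cells, so the shares below are of sequenced barcodes and not of whole tumors. The labels give tumor cells as the cell type, whereas barcodes above the leukocyte limit made up 51.8% of kept barcodes in the untreated library and 42.8% in the MSA-2 library. With 1 pooled library per group no comparison has a replicate, so no test was run, and the spread between tumors is unknown. Exact 95% intervals are given in parentheses and cover counting error only.

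Fibroblasts build the matrix of a tumor: they secrete fibrillar collagens and the small proteoglycans, such as decorin, that coat collagen fibrils. In tumors they are known in several states, among them contractile myofibroblasts, inflammatory fibroblasts that release cytokines and chemokines, and adventitial fibroblasts found around vessels. STING senses cyclic dinucleotides made when DNA reaches the cytosol, and it signals through the kinase TBK1 to IRF3 and NF-kB, which turn on type I interferon and inflammatory genes.

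The Col1a2 share of members ran from 0 to over 2% of UMIs. The Col1a2-high barcodes numbered 185 in the untreated library and 627 in the MSA-2 library, with medians of 12059 and 13655 UMIs. Their median Col1a2 share was 1.04% of UMIs untreated and 0.492% with MSA-2. The Dcn-only barcodes numbered 1006 and 3961, and their median Col1a2 share was 0% and 0.00257%. From 0.05% to 0.1% Col1a2 there were 2 untreated and 49 MSA-2 members, and from 0.1% to 0.15% there were 2 and 41. The MSA-2 library filled the range around the line: from 0.02% to 0.05%, 0.05% to 0.1%, 0.1% to 0.2% and 0.2% to 0.3% it held 103, 49, 73 and 81 members, against 7, 2, 4 and 5 untreated ones. Over these MSA-2 bins Col1a1 climbed step by step, at 273, 1102, 2265 and 3321 CPM, so the line divides a continuous range there. Summed over barcodes, Col1a2 stood at 10960.0 CPM untreated and 5662 CPM with MSA-2 in Col1a2-high barcodes, and at 18.2 and 51.2 CPM in Dcn-only barcodes. The non-immune barcodes that failed only the Col1a2 and Dcn requirement, called other non-immune barcodes below, held 18.8 and 42.4 CPM. Dcn-only and other non-immune barcodes both lie under 0.1% Col1a2 by selection, so their low levels are a description and support nothing.

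**Figure D1:**
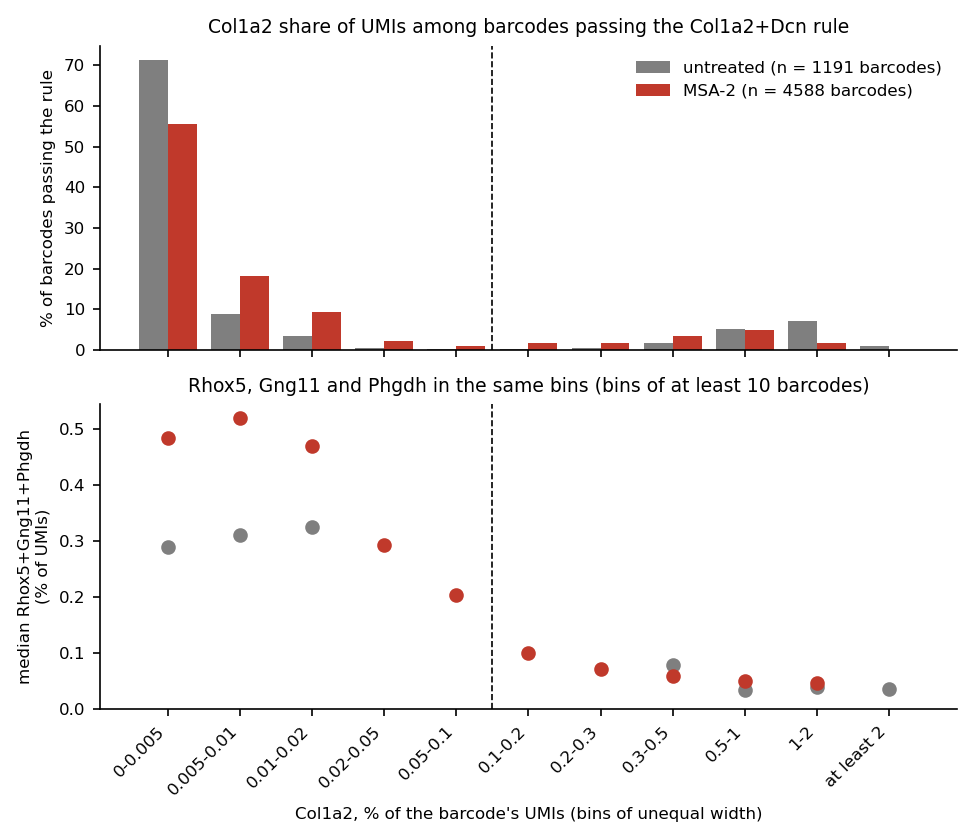
Members of each library in bins of unequal width by the percent of their UMIs from Col1a2, with the percent of members per bin above and the median percent of UMIs from Rhox5, Gng11 and Phgdh below. Next to the dashed 0.1% line lie 2 untreated and 49 MSA-2 members from 0.05% to 0.1%.

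Other marker genes differed in how far they separated the parts. Col1a1, the partner chain of Col1a2 in type I collagen, stood at 15176 and 7330.5 CPM in Col1a2-high barcodes and at 105 and 79.4 CPM in Dcn-only barcodes. Col3a1, which encodes type III collagen, was at 14678 and 8472 CPM in the Col1a2-high barcodes against 3007 and 1074 CPM in the Dcn-only ones. Lum, a proteoglycan of collagen fibrils, was at 797 and 239 CPM against 11.4 and 10.2 CPM. Pdgfra, a growth factor receptor of fibroblasts, was closer, at 119 and 100.4 CPM against 62.1 and 69.9 CPM. Dcn itself, a rule gene, was at 3064 and 3656 CPM against 2388 and 2489.7 CPM. Col1a1, Col3a1, Lum and Pdgfra, which the rule did not use, were thus higher in Col1a2-high than in Dcn-only barcodes of each library. The levels of Col1a2 and Dcn in these parts follow from the selection and support nothing.

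Rhox5, Gng11 and Phgdh, 3 genes picked after the values were seen, ran the other way. Their summed share had a median of 0.0395% of UMIs in untreated and 0.0538% in MSA-2 Col1a2-high barcodes. The median was 0.295% and 0.486% in Dcn-only barcodes, and 0.263% and 0.191% in other non-immune barcodes. At least 0.1% was reached by 22 of 185 (11.9%, 7.60 to 17.4) and 123 of 627 (19.6%, 16.6 to 22.9) Col1a2-high barcodes, and by 94.9% and 97.3% of Dcn-only barcodes. Across 16469 genes, the correlation of log2 CPM between Dcn-only and other non-immune barcodes was 0.987 in the untreated library and 0.988 in the MSA-2 library, with 67 and 110 genes at least 2-fold apart. Between Col1a2-high and Dcn-only barcodes it was 0.888 and 0.886, with 1270 and 1393 genes at least 2-fold apart. The points of these correlations are genes that share 1 library, and they are not independent replicates. The keratin and Epcam list, which marks epithelial tumor cells, summed to 3.69 and 5.76 CPM in Col1a2-high and 2.15 and 1.07 CPM in Dcn-only barcodes, with Krt18 at 0 in both parts, so it could not assign barcodes to the MC38 line.

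The 0.1% threshold on Col1a2 and Dcn together ran through many barcodes. Just outside it, from 0.075% to 0.1%, lay 295 untreated and 464 MSA-2 barcodes that passed every other limit. They had a median of 15 Col1a2 and Dcn UMIs in each library, with Col1a2 at 16.7 and 49.2 CPM. Just inside, from 0.1% to 0.15%, lay 338 and 962 members with a median of 21 and 24 such UMIs. Of these, 2 and 6 were Col1a2-high, so almost all members near the threshold passed it on Dcn. In the untreated library Rhox5 was at 632 CPM inside and 638 CPM outside, Gng11 at 1677 and 1599 CPM, and Phgdh at 972 and 969 CPM. The MSA-2 library held more of each inside than outside, with Rhox5 at 862 and 763 CPM, Gng11 at 2436 and 1836 CPM, and Phgdh at 1125 and 888 CPM. Above 1% the members were mostly Col1a2-high, 133 of 137 untreated and 273 of 308 with MSA-2.

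**Figure D2:**
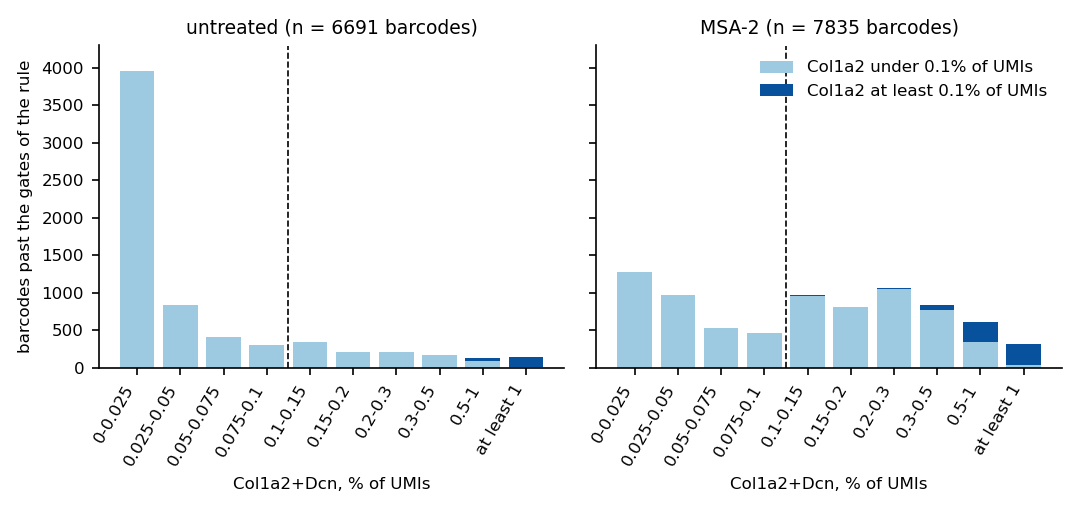
Barcodes past the leukocyte, endothelial and pericyte limits, counted in bins of their percent of UMIs from Col1a2 and Dcn together, with those at 0.1% Col1a2 or more in dark blue, for each library. The dashed line is the 0.1% threshold: from 0.1% to 0.15% lie 338 untreated and 962 MSA-2 members, of which 2 and 6 are Col1a2-high.

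Members made up 8.48% (8.03 to 8.96) of kept barcodes in the untreated library and 32.9% (32.1 to 33.6) in the MSA-2 library, a log2 ratio of 1.95 (1.86 to 2.05). Col1a2-high barcodes made up 1.32% (1.14 to 1.52) and 4.49% (4.15 to 4.85), a log2 ratio of 1.77 (1.53 to 2.01). Dcn-only barcodes made up 7.17% (6.74 to 7.60) and 28.4% (27.6 to 29.1), a log2 ratio of 1.99 (1.88 to 2.09). At these limits both parts took a larger share of the MSA-2 library, while other non-immune barcodes went from 39.2% to 23.3%, a log2 ratio of -0.75 (-0.82 to -0.69). For Col1a2-high barcodes the size and direction depended on the Col1a2 limit. With the limit at 0.3% there were 176 untreated and 473 MSA-2 barcodes, a log2 ratio of 1.43. From 0.5% to 1% Col1a2 there were 61 and 226 members, but from 1% to 2% there were 84 and 82 and above 2% there were 12 and 2, so the larger share lay below 1%. Col1a2-high barcodes were 15.5% (13.5 to 17.7) of untreated and 13.7% (12.7 to 14.7) of MSA-2 members. These shares are of captured barcodes, and numbers of cells per tumor were not measured.

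Dcn decides which barcodes under the Col1a2 line are members, so its level restates their number. Among barcodes that passed the other limits and lay under 0.1% Col1a2, Dcn went from 441 CPM untreated to 1467 CPM with MSA-2, and its median share from 0.0132% to 0.113% of UMIs. Dcn-only barcodes were 1006 of 6506 such barcodes (15.5%, 14.6 to 16.4) untreated and 3961 of 7208 (55.0%, 53.8 to 56.1) with MSA-2. In leukocyte-gated barcodes, which should lack the gene, Dcn was at 201 CPM untreated and 741 CPM with MSA-2. The part of free Dcn RNA in the Dcn-only share was not tested.

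Between Col1a2-high and other non-immune barcodes 1743 genes were at least 2-fold apart in the untreated library and 1548 in the MSA-2 library. The 15 genes with the largest ratio in both libraries, among them the rule gene Col1a2, were Col1a2, Col1a1, Saa3, Rarres2, Serping1, Cxcl14, Mfap5, Ptx3, Mmp3, Postn, Lox, Hp, C3, Bgn and Slit3. Rarres2, which encodes the chemoattractant chemerin, stood at 913 and 2835 CPM in Col1a2-high barcodes and at 2.24 and 31.7 CPM in other non-immune ones. Serping1, the inhibitor of complement C1, stood at 1895 and 1989 CPM against 4.10 and 21.2 CPM. Slit3, a secreted guidance factor, stood at 560.2 and 587 CPM against 1.06 and 4.60 CPM. At the opposite end were Ccnd1, Hmga2 and the amino acid synthesis genes Asns, Psph and Psat1, all lower in Col1a2-high barcodes of both libraries. Hmga2, a chromatin protein of growing cells, was at 36.9 and 61.7 CPM against 198 and 333 CPM.

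Between the libraries, 625 of 10296 genes (6.07%) with at least 50 UMIs rose at least 2-fold with MSA-2 in Col1a2-high barcodes and 615 (5.97%) fell at least 2-fold. The log2 ratios add 1 CPM to each library, while the intervals are those of the counted ratio. The median over all genes was -0.14, and scaling by edgeR's TMM moved it to 0.06 and the counts to 839 higher and 385 lower. In all members together 772 of 14449 genes (5.34%) rose and 717 (4.96%) fell. In Dcn-only barcodes 860 of 13804 (6.23%) rose and 656 (4.75%) fell, and in other non-immune barcodes 415 of 15141 (2.74%) rose and 248 (1.64%) fell. The medians over all genes were 0.10 in members, 0.14 in Dcn-only and -0.00 in other non-immune barcodes. Since 1 set of members mixes both parts, values below are given for Col1a2-high barcodes, with the counts and median of each list in Dcn-only and other non-immune barcodes after them. Whether the parts differed in these responses was not tested.

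Among the lists of fibroblast and signaling genes, interferon-stimulated genes, chemokines and acute-phase genes had the highest medians in Col1a2-high barcodes, and the contractile myofibroblast and collagen lists were among the lowest. MHC class II genes were lower still and are described with the markers of other cell types. The fibroblast identity list, which holds the rule gene Dcn, had 1 of 12 higher, 5 lower and a median of -0.87 in Col1a2-high barcodes. In Dcn-only barcodes 1 was higher and 3 lower (median -0.09), and in other non-immune barcodes 3 were higher and 2 lower (median 0.33). Cycling genes (median 0.11, with 0 of 10 genes 2-fold apart) and cell death genes (0.04, 1 of 17) stayed near the median of all genes. Of the cell death genes 1 of 17 in Dcn-only and 2 of 17 in other non-immune barcodes were 2-fold apart, with medians of 0.07 and -0.11.

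**Figure D3:**
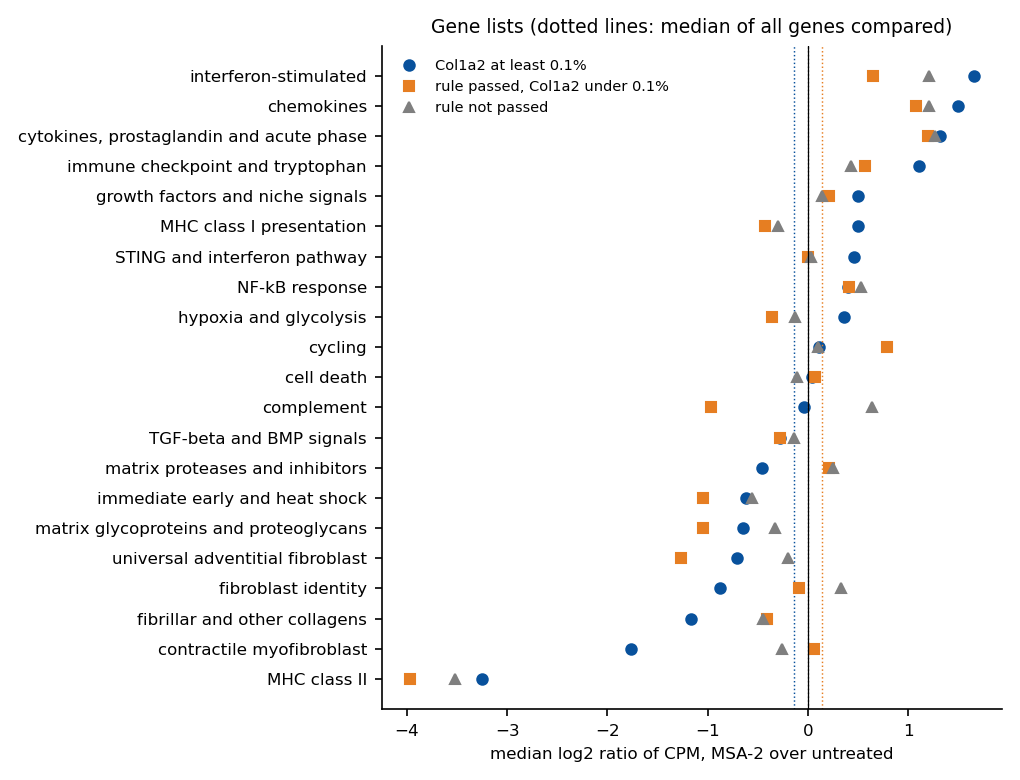
Median log2 ratio of CPM, MSA-2 over untreated (horizontal axis), of each gene list in Col1a2-high, Dcn-only and other non-immune barcodes. In Col1a2-high barcodes the interferon-stimulated list lies at 1.65 and the contractile list at -1.76.

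Interferon-stimulated genes, which carry the antiviral state, rose nearly throughout the list. Of 42 genes compared 38 rose at least 2-fold and 0 fell, with a median log2 ratio of 1.65. Ifit1, which binds foreign RNA caps, went from 104 to 1378 CPM (log2 ratio 3.71, 3.55 to 3.91). Rsad2, the antiviral enzyme viperin, went from 169 to 2044 CPM (3.59, 3.46 to 3.74). Ifih1, the RNA sensor MDA5, went from 73.9 to 1082 CPM (3.85, 3.66 to 4.09). Each of these values in the MSA-2 library exceeded the untreated value at least 10-fold. Part of the untreated values came from single barcodes: 142 of 411 untreated Rsad2 UMIs and 70 of 254 Ifit1 UMIs lay in 1 barcode each. At least 1 UMI was found in 48.6% of untreated Col1a2-high barcodes for Rsad2 and in 38.9% for Ifit1. Irf7, a transcription factor of the interferon response, went from 146 to 645 CPM. The gene with the lowest ratio in the list was Irf1, at 249 and 224 CPM. In Dcn-only barcodes 14 of 42 genes rose and the median was 0.65, and in other non-immune barcodes 23 rose and the median was 1.20. Ifih1, for one, was at 113 and 181 CPM in Dcn-only and 64.7 and 172 CPM in other non-immune barcodes. Rsad2 and Ifit1 were found in more barcodes of both parts with MSA-2. With barcodes thinned to 1500 UMIs, Rsad2 was in 21.5% and 58.1% of Dcn-only and 18.3% and 59.0% of other non-immune ones. Ifit1 was in 15.8% and 42.3%, and in 10.7% and 37.2%. In Col1a2-high barcodes these shares were 13.2% and 80.2% for Rsad2 and 9.89% and 76.9% for Ifit1.

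Promoters of this and 4 other lists were searched for 2 motifs because the interferon-stimulated genes moved together. The sequences are RefSeq promoters of build GRCm38.p6, from 250 bases before to 50 after a gene's start, written 5′ to 3′ on the gene's strand. Capitals mark the core of the interferon-stimulated response element, GAAANNGAA on either strand, and overlapping matches run together. Of all 32851 promoters 2812 (8.56%) held it, against 23 of 39 promoters of the interferon-stimulated list, which matched 32 of 44 genes. Among chemokines 5 of 14 promoters held it, among cytokine and acute-phase genes 3 of 25, among contractile genes 1 of 11 and among collagens 0 of 13. A kappaB-like motif, GGNNTTTCC on either strand, was searched separately, so a promoter can hold both motifs. It was in 1913 of all 32851 promoters (5.82%), in 7 of 14 of chemokines, in 6 of 25 of cytokine and acute-phase genes and in 4 of 39 of the interferon-stimulated list. Among contractile genes 0 of 11 promoters held it and among collagens 0 of 13. Cxcl10, Saa3, Ifit3, Isg15, Rsad2 and Gbp5 each held both motifs without a shared base. Cxcl13, Lcn2, Cmpk2 and Oasl1, which all rose in Col1a2-high barcodes, had no match to either. Ifit1 lies at chr19:34640639-34640938 (+), Ifih1 at chr2:62646206-62646505 (-), Cxcl10 at chr5:92348840-92349139 (-), Saa3 at chr7:46715627-46715926 (-) and Acta2, a contractile gene shown for contrast, at chr19:34255324-34255623 (-). A match describes letters and is not a measured binding site.
Ifit1: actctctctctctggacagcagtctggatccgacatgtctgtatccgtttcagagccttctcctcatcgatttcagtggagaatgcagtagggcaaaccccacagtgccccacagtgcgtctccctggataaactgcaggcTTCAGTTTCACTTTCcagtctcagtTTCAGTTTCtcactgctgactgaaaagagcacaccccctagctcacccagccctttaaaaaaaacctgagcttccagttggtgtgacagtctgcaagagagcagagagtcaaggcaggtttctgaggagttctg
Ifih1: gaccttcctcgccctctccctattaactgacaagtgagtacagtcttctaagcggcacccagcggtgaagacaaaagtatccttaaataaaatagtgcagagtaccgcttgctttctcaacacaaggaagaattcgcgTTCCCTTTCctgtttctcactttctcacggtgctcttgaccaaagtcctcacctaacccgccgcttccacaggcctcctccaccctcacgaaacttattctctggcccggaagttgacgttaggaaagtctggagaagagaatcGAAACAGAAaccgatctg
Cxcl10: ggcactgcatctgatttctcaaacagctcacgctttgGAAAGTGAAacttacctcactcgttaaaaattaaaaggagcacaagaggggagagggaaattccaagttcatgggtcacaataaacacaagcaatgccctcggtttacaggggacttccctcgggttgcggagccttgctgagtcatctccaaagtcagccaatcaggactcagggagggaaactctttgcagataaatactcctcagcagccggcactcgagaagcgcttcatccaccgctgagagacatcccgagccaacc
Saa3: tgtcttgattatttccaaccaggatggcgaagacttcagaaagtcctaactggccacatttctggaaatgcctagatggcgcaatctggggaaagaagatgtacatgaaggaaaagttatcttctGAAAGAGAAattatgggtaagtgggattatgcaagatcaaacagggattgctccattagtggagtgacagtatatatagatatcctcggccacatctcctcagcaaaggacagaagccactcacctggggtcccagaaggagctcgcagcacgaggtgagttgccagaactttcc
Acta2: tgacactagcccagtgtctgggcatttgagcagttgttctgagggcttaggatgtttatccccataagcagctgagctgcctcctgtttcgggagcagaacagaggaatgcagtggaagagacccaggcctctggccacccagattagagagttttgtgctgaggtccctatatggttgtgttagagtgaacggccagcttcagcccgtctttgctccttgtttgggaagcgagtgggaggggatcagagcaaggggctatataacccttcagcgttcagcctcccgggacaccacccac

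Genes of the STING pathway had a lower median than interferon-stimulated genes, 0.46, and of 15 compared 3 rose and 0 fell. In Dcn-only and in other non-immune barcodes 2 of 16 rose and 0 fell, with medians of 0.00 and 0.03. Tmem173, which encodes STING, was at 30.8 and 37.2 CPM (log2 ratio 0.27, -0.09 to 0.65), against 5.16 and 3.91 CPM in other non-immune barcodes. Tbk1, its kinase, was at 34.9 and 48.2 CPM, and Irf3, its transcription factor, at 20.1 and 14.7 CPM. Ifnb1, the type I interferon made downstream, went from 9 UMIs (3.69 CPM) to 1246 UMIs (128 CPM). Of the 9 untreated UMIs 8 lay in 1 barcode, whereas the MSA-2 UMIs were spread over 301 barcodes. Ifnb1 was at 5.77 and 21.8 CPM in Dcn-only barcodes and at 58.9 and 596 CPM in leukocyte-gated barcodes, so the leukocyte level was the highest of these parts. Trex1, which degrades cytosolic DNA, had 0 UMIs in both libraries, in Dcn-only and other non-immune barcodes as well. Its absence is therefore not particular to Col1a2-high barcodes, and why it was not counted was not tested.

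Chemokines, which recruit leukocytes, rose in 13 of 21 genes compared and fell in 1, with a median of 1.50. The list rose in the other parts too: in Dcn-only barcodes 11 of 20 rose and 1 fell, with a median of 1.07, and in other non-immune barcodes 12 of 20 rose and 1 fell, with a median of 1.20. Ligands of the neutrophil receptor CXCR2 split. Cxcl5 went from 38.6 to 926 CPM (log2 ratio 4.55, 4.29 to 4.89) and Cxcl2 from 736 to 2079 CPM, whereas Cxcl1 was at 2885 and 2743 CPM. Cxcl5 stood at 0.133 and 8.90 CPM in other non-immune and 0.488 and 37.5 CPM in leukocyte-gated barcodes. Cxcl13, the B cell attractant, went from 11 UMIs (4.51 CPM) to 6320 UMIs (650.1 CPM, 6.88, 6.33 to 8.17), with 5.34 CPM in other non-immune barcodes of the MSA-2 library. Ligands of the T cell receptor CXCR3 rose as well. Cxcl9 went from 502 to 1858 CPM and Cxcl10 from 1190.2 to 4899 CPM. In Dcn-only barcodes Cxcl9 was at 308 and 191 CPM and Cxcl10 at 3669 and 3287 CPM, both less than 2-fold lower with MSA-2. Ccl5 went from 134 to 1843 CPM, with 124 of 327 untreated UMIs in 1 barcode. With barcodes thinned to 1500 UMIs, Ccl5 was found in 25.2% and 50.8% of Dcn-only and 16.1% and 38.6% of other non-immune barcodes. In leukocyte-gated barcodes it was found in 49.2% and 67.6%. Ccl19, which draws dendritic and T cells, went from 30.8 to 109 CPM. Ccl2 and Ccl7, monocyte attractants, were high in both libraries, Ccl2 at 3117 and 5198 CPM and Ccl7 at 2611 and 4180.0 CPM. Cxcl12, the retention signal made by stromal cells, was at 359.9 and 499 CPM, and Cx3cl1 was the gene that fell, at 10.7 and 2.67 CPM, under 2-fold (-0.71) with 10 CPM added.

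Cytokine, prostaglandin and acute-phase genes rose in 15 of 28 and fell in 0, with a median of 1.31. The count was higher in the other parts, with 17 of 28 higher and 0 lower in both, and a median of 1.20 in Dcn-only and 1.27 in other non-immune barcodes. The summed level of the list was higher in Col1a2-high barcodes, at 6327 and 21535 CPM, against 1048 and 1799.9 CPM in Dcn-only and 581 and 1295 CPM in other non-immune barcodes. Saa3, an acute-phase protein, went from 1313 to 12008 CPM (log2 ratio 3.19, 3.14 to 3.24), the most abundant gene of its list in the MSA-2 library. In other non-immune barcodes Saa3 went from 2.21 to 125 CPM and in leukocyte-gated barcodes from 8.19 to 1169.6 CPM. Lcn2, which binds bacterial iron carriers, went from 147 to 1586 CPM (3.43, 3.28 to 3.59), with 96 of 357 untreated UMIs in 1 barcode. Il6 went from 204 to 793 CPM (1.95, 1.83 to 2.09), and in Dcn-only barcodes it stood at 12.3 and 23.2 CPM. Csf3, the granulocyte growth factor, went from 63.6 to 350.0 CPM. Of 155 untreated Csf3 UMIs, 62 lay in 1 barcode, while the 3403 MSA-2 UMIs lay in 301 barcodes. Nos2, the inducible nitric oxide synthase, went from 11 UMIs to 2048 UMIs (4.51 and 211 CPM). Nos2 was also high in Dcn-only barcodes, at 48.1 and 291 CPM. Tnf stood at 6.57 and 81.4 CPM, beside 175 and 524 CPM in leukocyte-gated barcodes. Genes under 2-fold included Il33, an alarmin, at 458 and 877 CPM, Csf1, the macrophage growth factor, at 339 and 339.8 CPM, and Has1, a hyaluronan synthase, at 434 and 325 CPM.

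Of 18 genes of antigen presentation by MHC class I, 3 rose at least 2-fold, 0 fell and 17 had a ratio above 0 in Col1a2-high barcodes, with a median of 0.50. In Dcn-only barcodes 0 rose and 1 fell, with a median of -0.43 and 4 above 0, and in other non-immune barcodes 0 were called, with a median of -0.30 and 2 above 0. H2-K1, a heavy chain, was at 1648 and 3053 CPM in Col1a2-high barcodes and at 3073 and 1711 CPM in Dcn-only ones. B2m, the light chain, was at 1198 and 1981 CPM against 2291 and 1476 CPM. Nlrc5, the activator of class I genes, rose from 15.2 to 56.1 CPM in Col1a2-high barcodes. Of the checkpoint genes 3 of 5 compared rose in Col1a2-high, 1 of 6 in Dcn-only and 2 of 9 in other non-immune barcodes, with medians of 1.11, 0.57 and 0.43. Among those in Col1a2-high barcodes was Cd274, which encodes PD-L1, from 22.6 to 195 CPM (log2 ratio 3.06, 2.72 to 3.53). Cd274 stood at 37.3 and 142 CPM in other non-immune barcodes. Ido1, a tryptophan-degrading enzyme, had 0 UMIs untreated, which allows up to 3 counts (1.23 CPM), and 4 UMIs with MSA-2.

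Complement genes moved in both directions. In Col1a2-high barcodes 1 of 10 was higher and 2 lower, with a median of -0.04. In Dcn-only barcodes 2 of 10 were higher and 5 lower (median -0.96), and in other non-immune barcodes 4 of 11 higher and 2 lower (median 0.64). Cfb, a protease of the alternative pathway, was the one that rose in Col1a2-high barcodes, from 515 to 1334 CPM. C3, the central component, was at 911 and 1148 CPM. NF-kB response genes had 3 of 18 higher, 0 lower, 15 with a ratio above 0 and a median of 0.40. In Dcn-only barcodes 2 of 18 were higher, 13 had a ratio above 0 and the median was 0.41, and in other non-immune barcodes 2 were higher, 17 were above 0 and the median was 0.53. The 3 genes higher in Col1a2-high barcodes were Tnfaip3, an inhibitor of the pathway, from 183 to 444 CPM, its partner Tnip1, from 52.5 to 134 CPM, and Sod2, a mitochondrial antioxidant enzyme, from 173 to 667 CPM.

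Collagen genes fell. Of 16 compared 11 were at least 2-fold lower and 0 higher, with a median of -1.17, in Col1a2-high barcodes. Their summed level went from 36904 to 19600.3 CPM. Of the fibrillar chains, Col1a1 went from 15176 to 7330.5 CPM (log2 ratio -1.05, -1.07 to -1.03) and Col3a1, under 2-fold, from 14678 to 8472 CPM (-0.79, -0.81 to -0.77). Col1a1 came under 2-fold in 4 alternatives, with -0.82 at a Col1a2 limit of 0.3% and -0.84 with TMM factors. At similar Col1a2 the gap was smaller: Col1a1 was at 11559 and 8974 CPM in members from 0.5% to 1% Col1a2, and at 19006 and 16345 CPM from 1% to 2%. The median of the whole list was -1.07 at the 0.3% limit and, under 2-fold, -0.96 with TMM factors. Col12a1 and Col14a1, which sit on fibril surfaces, went from 729.7 to 287 CPM and from 609.9 to 220.2 CPM. Col6a1, of microfibrillar type VI collagen, went from 833 to 353 CPM. The chains with a ratio above 0 were those of the basement membrane. Col4a1 was at 227 and 399.9 CPM (0.81, 0.69 to 0.95) and Col4a2 at 121 and 160.1 CPM (0.40, 0.22 to 0.58). In Dcn-only barcodes the list had 1 gene higher and 1 lower of 14, with a median of -0.41, and in other non-immune barcodes 0 higher and 1 lower of 15, with a median of -0.45. The gene that fell in Dcn-only barcodes was Col3a1, from 3007 to 1074 CPM, though its log2 ratio was -0.70 with the member threshold at 0.5%.

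Matrix glycoproteins and proteoglycans fell in 9 of 24 genes and rose in 0, with a median of -0.65. More genes of the list fell in Dcn-only barcodes, with 13 of 24 lower, 3 higher and a median of -1.05, and fewer in other non-immune barcodes, with 5 lower, 3 higher and a median of -0.33. Eln, the elastin gene, went from 630.4 to 131 CPM (log2 ratio -2.25, -2.37 to -2.15), Thbs2, a matricellular protein, from 1213 to 318 CPM, and Fn1, fibronectin, from 2182 to 847 CPM. Bgn, a small proteoglycan like decorin, was at 4121 and 2298 CPM. Several genes of the list kept to within 2-fold or were higher. Tnc, tenascin C, was at 1323 and 1477 CPM, Vcan, versican, at 388 and 680.2 CPM, and Lox, which cross-links collagen, at 745 and 771 CPM. Serpinh1, the collagen chaperone, was at 1794 and 1798 CPM.

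Proteases and their inhibitors moved in both directions, with 4 of 21 higher, 8 lower and a median of -0.46. In Dcn-only barcodes 3 were higher and 2 lower (median 0.21), and in other non-immune barcodes 3 higher and 1 lower (median 0.25). Timp1, an inhibitor of metalloproteinases, went from 1384 to 5155 CPM (log2 ratio 1.90, 1.85 to 1.95), whereas its relatives Timp2 and Timp3 went from 1026 to 428 CPM and from 728 to 114 CPM. Fap, a serine protease used as a marker of tumor fibroblasts, rose from 71.4 to 293 CPM (2.02, 1.81 to 2.26). Ctsk, a collagen-degrading cathepsin, fell from 435 to 131 CPM. Mmp2, a gelatinase, went from 679 to 332 CPM, close to the 2-fold line, and was under it in 6 alternatives, for one -0.82 with TMM factors. Mmp3, or stromelysin, was at 1218 and 1002 CPM. Mmp13 fell from 149.8 to 25.4 CPM, but its UMIs lay in only 19 untreated and 21 MSA-2 barcodes.

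The contractile myofibroblast list, which holds contractile as well as secreted and membrane proteins of myofibroblasts, fell furthest of the fibroblast lists, with 10 of 13 at least 2-fold lower, 0 higher and a median of -1.76. Acta2, smooth muscle actin, went from 699 to 105 CPM (log2 ratio -2.73, -2.85 to -2.63). Tagln, an actin-binding protein, went from 969.8 to 179.9 CPM (-2.42, -2.52 to -2.34), and Myl9, a myosin light chain, from 95.2 to 8.64 CPM (-3.32, -3.84 to -3.10). Its other genes include the membrane protein Lrrc15, which went from 187 to 25.5 CPM, the secreted Cthrc1 from 845 to 222 CPM, and Postn, periostin, from 3131 to 1394 CPM. Postn came under 2-fold in 2 alternatives, with -0.97 at a Col1a2 limit of 0.3% and -0.96 with TMM factors. Ccn2, a secreted target of TGF-beta in the same list, went from 356 to 81.9 CPM. In Dcn-only barcodes the list had a median of 0.06 with 2 of 11 lower, and Acta2 stood at 5.83 and 3.76 CPM there. In other non-immune barcodes 3 of 15 were lower and 0 higher, with a median of -0.26. The TGF-beta and BMP list had 2 of 15 higher, 1 lower and a median of -0.28 in Col1a2-high barcodes, 3 of 15 higher and 2 lower (median -0.28) in Dcn-only, and 2 of 15 higher and 1 lower (median -0.13) in other non-immune barcodes. Its member that fell in Col1a2-high barcodes was the ligand Tgfb3, from 86.6 to 12.4 CPM, while the BMP antagonist Grem1 and the ligand Bmp2 rose, Grem1 from 14.8 to 37.0 CPM. With the Col1a2 line moved to 0.3%, the log2 ratio of Grem1 was -0.22.

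Adventitial genes had 5 of 15 lower, 1 higher and a median of -0.71. In Dcn-only barcodes more of them were lower, 10 of 14 with 1 higher and a median of -1.27, and in other non-immune barcodes 1 of 15 was lower and 0 higher, with a median of -0.20. Pi16, a marker of adventitial fibroblasts, was at 456 and 278 CPM (log2 ratio -0.71, -0.81 to -0.61) and Dpp4, a surface peptidase, at 59.9 and 58.4 CPM. Cd34 went from 218 to 104 CPM, and Dpt, dermatopontin, from 619 to 277 CPM, but with TMM factors their log2 ratios were -0.85 and -0.95. Ly6a and Ly6c1 were not called, Ly6a at 1997 and 3247 CPM and Ly6c1 at 511 and 889 CPM. In Dcn-only barcodes Ly6a fell from 1301 to 539 CPM, though its log2 ratio was -0.71 with the member threshold at 0.5%.

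Of growth factors and niche signals, 4 of 20 rose and 3 fell, with a median of 0.50. In Dcn-only barcodes 4 of 18 rose and 5 fell (median 0.21), and in other non-immune barcodes 4 of 20 rose and 0 fell (median 0.14). Ereg, a ligand of the EGF receptor, rose from 13.5 to 119 CPM, Angptl4, a lipase inhibitor, from 74.3 to 353 CPM, and Angpt1, which stabilises vessels, from 32.8 to 117 CPM. Gas6, the ligand of the receptor AXL, fell from 473 to 209 CPM, with a log2 ratio of -0.73 at equal weight per barcode, and Igf1 was at 294 and 156 CPM. Hypoxia and glycolysis genes had 1 of 13 higher, namely the vasodilator peptide Adm, from 62.0 to 391 CPM, and a median of 0.36. Of 14 such genes 0 were higher and 2 lower in Dcn-only barcodes (median -0.35), and 0 were called in other non-immune barcodes (median -0.13). Immediate early and heat shock genes, which also respond to dissociation, had 1 of 12 lower and a median of -0.62. Fosb was the gene that fell, from 1228 to 575 CPM, and it came under 2-fold in 4 alternatives, for one -0.89 with TMM factors. In Dcn-only barcodes that list had 6 of 12 lower and a median of -1.05, and 1 of 10 cycling genes rose there, with a median of 0.78. In other non-immune barcodes 0 of 12 and 0 of 10 were called, with medians of -0.56 and 0.10. Top2a, a topoisomerase of dividing cells, was under 2-fold in Dcn-only barcodes at 131 and 253 CPM.

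Outside the lists, named genes are those with the largest ratios once a level of 50 CPM was reached in untreated or MSA-2 barcodes. Higher with MSA-2 were Serpinb2, a plasminogen activator inhibitor, from 77 UMIs (31.6 CPM) to 1153 CPM (log2 ratio 5.15, 4.87 to 5.53), and Ch25h, which makes an antiviral oxysterol, from 9 UMIs (3.69 CPM) to 129 CPM. Ch25h was at 3.00 and 2.72 CPM in Dcn-only barcodes. The long noncoding transcript U90926 had 1 UMI untreated and 858 with MSA-2, a log2 ratio without added CPM of 7.75 (5.27 to 13.05). Lower with MSA-2 were C1qtnf3, an adipokine-like secreted protein, from 875 to 77.7 CPM (-3.48, -3.62 to -3.37), and 3 genes of insulin-like growth factor binding proteins. Igfbp3 went from 469 to 48.7 CPM (-3.24, -3.43 to -3.11) and Igfbp5 from 171 to 11.6 CPM (-3.77, -4.19 to -3.57). Igfbp2 went from 98.9 to 5.76 CPM, but its untreated UMIs lay in 19 barcodes. Reg1 and Reg3g, secreted lectins, were likewise held by few barcodes, 21 and 17 untreated. Igkc, Ighg2c and Jchain, plasma cell genes, came from a single untreated barcode, with 4159 of 4185, 725 of 725 and 67 of 69 UMIs.

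**Figure D4:**
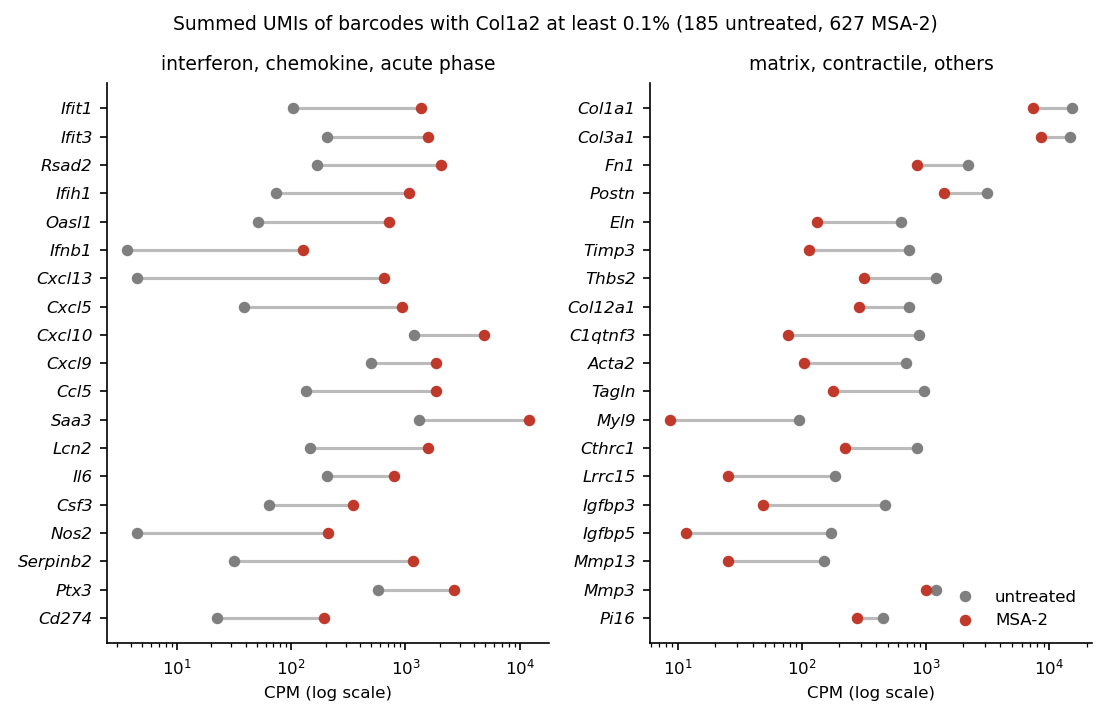
CPM of named genes in Col1a2-high barcodes (horizontal axis, CPM, log scale) in the untreated and MSA-2 libraries, joined by a line for each gene. Cxcl13 goes from 4.51 to 650.1 CPM and Acta2 from 699 to 105 CPM.

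Shares of barcodes with a UMI were compared after thinning every barcode to 1500 UMIs, which 182 untreated and 607 MSA-2 Col1a2-high barcodes allowed. Other non-immune barcodes, with medians of 21518 and 21469 UMIs before thinning, serve as the part for comparison. They did not lack all fibroblast genes. Thinned, Col3a1 was found in 64.2% of untreated and 44.9% of MSA-2 ones, and the rule gene Dcn in 20.5% and 38.5%. Saa3 was found in 28.6% (22.1 to 35.7) of untreated and 86.7% (83.7 to 89.3) of MSA-2 Col1a2-high barcodes, and without thinning in 38.9% and 96.0%. In other non-immune barcodes the thinned shares were 0.317% and 18.4%, and the unthinned ones 5% and 85.4%. Cxcl13 was found in 1.10% (0.133 to 3.91) and 24.9% (21.5 to 28.5), without thinning in 3.24% and 43.5%, with 0% and 0.8997% thinned and 0.364% and 11.0% unthinned in other non-immune barcodes. Cxcl5 was found in 3.30% (1.22 to 7.04) and 40.5% (36.6 to 44.6), without thinning in 11.4% and 62.5%, with 0% and 1.74% thinned and 0.218% and 15.6% unthinned beside them. Saa3, Cxcl5 and Cxcl13 were thus detected in more Col1a2-high barcodes with MSA-2 and, thinned, stood above the share of the other part. Among contractile genes Acta2 went the other way, from 21.98% (16.2 to 28.7) to 6.26% (4.47 to 8.49), without thinning from 49.7% to 22.2%, with 1.16% and 0.482% thinned and 9.76% and 5.64% unthinned beside them. Cthrc1 went from 54.4% (46.9 to 61.8) to 19.3% (16.2 to 22.6), without thinning from 77.3% to 62.5%, with 0.149% and 0.321% thinned and 2.64% and 3.97% unthinned beside them. Pi16 was found in 41.2% (34.0 to 48.7) and 28.7% (25.1 to 32.4), without thinning in 69.7% and 64.8%, with 0.131% and 0.353% thinned and 2.15% and 6.10% unthinned beside them. The neutrophil gene S100a9 was found in 0% and 21.9%, beside 0.149% and 25.3% in other non-immune barcodes.

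**Figure D5:**
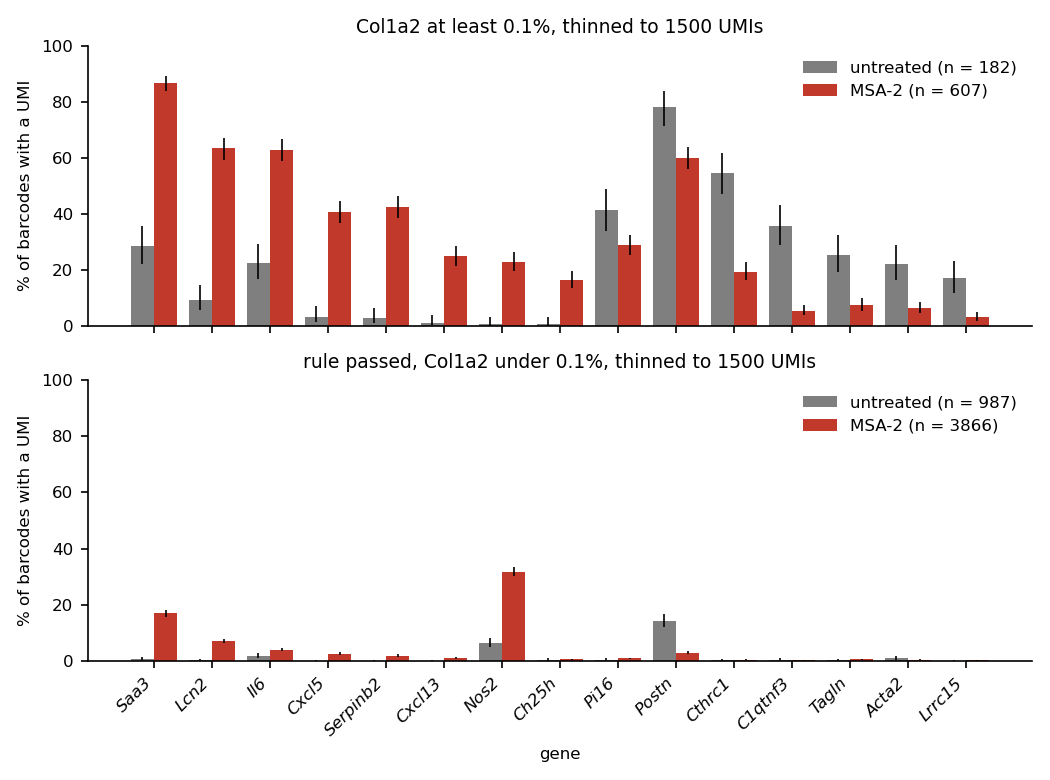
Share of barcodes with at least 1 UMI of each gene after thinning to 1500 UMIs, with exact 95% intervals, in Col1a2-high barcodes above and Dcn-only barcodes below. Saa3 goes from 28.6% to 86.7% and Acta2 from 21.98% to 6.26% in Col1a2-high barcodes.

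Per-barcode scores showed that Col1a2-high barcodes were not uniform. Each score asked for at least 3 UMIs of a short gene list after thinning, with gene sets chosen after the values were seen. The contractile score was reached by 65 of 182 untreated (35.7%, 28.8 to 43.1) and 53 of 607 MSA-2 barcodes (8.73%, 6.61 to 11.3), without thinning by 74.6% and 54.5%. In other non-immune barcodes 2.39% and 0.578% reached it thinned, and 81.5% and 71.2% without thinning. The order of the parts thus reversed without thinning. The adventitial score was reached by 79.1% (72.5 to 84.8) and 71.5% (67.7 to 75.1), without thinning by 97.3% and 96.7%, beside 7.51% and 2.67% thinned and 82.5% and 76.8% unthinned in other non-immune barcodes. The 2 scores were not exclusive, since 54 of the 65 untreated contractile barcodes also reached the adventitial one. The cycling score was reached by 8.79% (5.11 to 13.9) and 6.10% (4.33 to 8.30), without thinning by 45.4% and 56.6%, beside 23.3% and 29.0% thinned and 81.3% and 88.3% unthinned. The interferon-stimulated score was reached by 174 of 182 untreated barcodes and by all 607 MSA-2 barcodes, beside 4771 of 5356 and 3081 of 3112 other non-immune barcodes, so it does not separate these parts.

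Within the MSA-2 library, Cxcl13 and Saa3 were compared inside and outside the contractile and adventitial scores. Cxcl13 was found in 0 of 53 barcodes that reached the contractile score (0 to 6.72) and in 151 of 554 others (27.3%, 23.6 to 31.2). Saa3 was found in 35 of the 53 (66.0%, 51.7 to 78.5) and in 491 of the 554 (88.6%, 85.7 to 91.2). By the adventitial score the shares were closer, with Saa3 in 87.3% (83.8 to 90.3) inside and 84.97% (78.8 to 89.9) outside, and Cxcl13 in 26.5% (22.4 to 30.9) and 20.8% (15.02 to 27.6). Cxcl13 was found in 25.9% (22.2 to 29.8) of barcodes with a Saa3 UMI and 18.5% (10.8 to 28.7) without. In the untreated library Saa3 was found in 9 of 65 contractile barcodes (13.8%, 6.53 to 24.7) and in 43 of 117 others (36.8%, 28.0 to 46.2). By the adventitial score Saa3 was found there in 38 of 144 barcodes inside (26.4%, 19.4 to 34.4) and 14 of 38 outside (36.8%, 21.8 to 54.0). With MSA-2, Cxcl5 was found in 235 of 526 barcodes with a Saa3 UMI (44.7%, 40.4 to 49.0) and in 11 of 81 without (13.6%, 6.98 to 23.001). Serpinb2 was found in 243 of those 526 (46.2%, 41.9 to 50.6) and in 14 of the 81 (17.3%, 9.78 to 27.3). These barcodes share 1 library each and are not replicates. Median Saa3 in Col1a2-high barcodes was 0% of UMIs untreated and 0.807% with MSA-2, where the central 50% of barcodes ran from 0.210% to 1.86%.

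Dcn-only barcodes, the larger part of the members, differed from other non-immune barcodes in Dcn and in fewer genes than Col1a2-high barcodes did. Col3a1 was at 3007 and 1074 CPM in Dcn-only and 995 and 434 CPM in other non-immune barcodes. After thinning, the adventitial score was reached by 25.6% (22.9 to 28.5) of untreated and 4.16% (3.56 to 4.84) of MSA-2 Dcn-only barcodes, and the cycling score by 9.93% (8.13 to 11.97) and 22.04% (20.7 to 23.4). Without thinning these shares were 90.3% and 76.8% for the adventitial score and 63.8% and 83.6% for the cycling score. The 15 genes with the largest ratio over other non-immune barcodes in both libraries included Dcn, AW112010, Nos2, Col3a1, H19, Id3, Ccl5, Osr2, Pdgfra and Plcb1. AW112010, an interferon-gamma-induced transcript, was at 716 and 586 CPM in Dcn-only and 261 and 147 CPM in other non-immune barcodes. H19, an imprinted noncoding RNA, was at 463 and 272 CPM against 187 and 75.8 CPM. Osr2, a transcription factor of mesenchyme, was at 187 and 93.3 CPM against 81.1 and 34.7 CPM. With MSA-2 the protease Klk8 went from 5 UMIs (0.283 CPM) to 57.1 CPM, the glycosyltransferase Galnt13 from 1.87 to 80.3 CPM, and Ednra, an endothelin receptor, from 7.70 to 64.7 CPM. Ednra was at 13.1 and 13.3 CPM in Col1a2-high barcodes. Lower were Aspn, asporin, from 104 to 4.25 CPM, Ogn, osteoglycin, from 100.3 to 7.70 CPM, and Enpp2, which makes lysophosphatidic acid, from 235 to 21.4 CPM. Enpp2 was at 17.2 and 14.7 CPM in Col1a2-high barcodes. Postn fell from 156 to 15.6 CPM, but without barcodes at 0.1% or more of Rhox5, Gng11 and Phgdh its log2 ratio was 0.20.

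Markers of other cell types were read beside these results, and their part in them was not tested. Neutrophil markers rose in 7 of 7 genes compared in Col1a2-high barcodes, from a summed 33.7 to 495 CPM, with S100a9 the most abundant at 200.3 CPM with MSA-2. The sums were 7.13 and 485 CPM in Dcn-only and 8.23 and 528 CPM in other non-immune barcodes, so the 3 parts rose to similar levels. Macrophage markers fell in 6 of 8, from 431 to 133 CPM, with C1qa the most abundant, and from 405 to 128 CPM in other non-immune barcodes. MHC class II genes fell in 5 of 5, led by H2-Eb1, from 104 to 4.53 CPM, beside 106 and 4.78 CPM in other non-immune barcodes. In leukocyte-gated barcodes H2-Eb1 went from 3165 to 178 CPM and S100a9 from 12.3 to 9632 CPM. The B and plasma list summed to 2060.2 and 6.58 CPM, mostly Igkc (1718 CPM untreated) and Ighg2c (298 CPM) of the barcode named above, and T and NK markers to 33.2 and 7.61 CPM with Nkg7 the most abundant. Mural markers summed to 237 and 135 CPM, with Ndufa4l2 the most abundant in each library, and fell in 2 of 4. Endothelial markers summed to 25.03 and 20.6 CPM, led by Flt1. Adipocyte markers summed to 80.8 and 149 CPM, with Adipoq at 0, Lpl the most abundant untreated and Fabp4 with MSA-2. The skeletal muscle, Schwann, keratinocyte, mast and mesothelial lists each summed to under 15 CPM in both libraries, with Myh4, Sox10, Krt5, Krt1, Krt15, Upk3b and Muc16 at 0. Their most abundant genes were Mylpf and Tnni2, Mbp, Krt10, Mcpt2 and Cma1, and Msln and Wt1.

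Doublets were not removed. Scrublet, at expected rates of 11.5% and 11.7%, called 9 of 185 untreated (4.87%, 2.25 to 9.03) and 24 of 627 MSA-2 Col1a2-high barcodes (3.83%, 2.47 to 5.64), against 5.19% and 3.96% of all kept barcodes. The calls were fewer in Dcn-only barcodes, 0.895% and 1.87%, and in other non-immune barcodes, 1.53% and 1.97%, and more in leukocyte-gated barcodes, 8.55% and 6.44%. The libraries shared 53 barcode names among all barcodes, 44 among kept barcodes and 0 among members.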

How the data were processed

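The members were chosen by their Col1a2 and Dcn values from 1 library per condition, and the members and gene lists were chosen with earlier results of these data known. The values are UMI counts per gene and barcode as deposited: the authors made them with Cell Ranger, given as 7.0.0 in their notes and 7.0.1 in the matrix header, on build mm10, and name Seurat 4.3.0 for later steps that were not used here, while the study's methods section gives other versions of both. Of 32285 features, 78 share a symbol with another and were summed, which left 32245 symbols. Barcodes had a median depth of 8372 UMIs without treatment and 8661 with MSA-2.

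UMIs were summed over the barcodes of a part and scaled to CPM. A gene was called when its CPM, with 1 added, differed at least 2-fold and it had at least 50 UMIs in both libraries together. Shares carry exact binomial 95% intervals and ratios carry conditional binomial ones. With 0 UMIs, up to 3 counts are allowed. Thinning drew 1500 UMIs per barcode without replacement at seed 1. Genes were named by 4 rules: members of the 34 gene lists, the 10 largest ratios in each direction at 50 CPM or more, the same among genes at least 2-fold above all kept barcodes outside the part, and the 15 genes that most set a part apart from other non-immune barcodes in both libraries, with 10 CPM added. Rhox5, Gng11 and Phgdh, the Col1a2 split, the per-barcode scores, the genes lowest relative to other non-immune barcodes, and the alternatives on these choices were added after the values were seen. Some genes that the rules name are not reported here. Doublets were called by Scrublet at 0.8% per 1000 barcodes and kept. The ratios and their intervals were tested on simulated data. Alternatives varied the member rule, the filters, the scaling and the denominator. Work used Python 3.11.15, numpy 2.4.6, scipy 1.17.1, pandas 2.3.3, scanpy 1.11.5, matplotlib 3.10.9, R 4.3.3 and edgeR 4.0.16, the last only for TMM factors.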

Additional observations from a re-analysis of the deposited data

Results flagged for a closer look

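Of 9979 genes compared in both parts, 21 changed at least 2-fold in opposite directions in Col1a2-high and Dcn-only barcodes, and 5 of these reached 50 CPM in each, of which 4 are given here. Fabp4, a fatty acid carrier, had a log2 ratio of 1.91 in Col1a2-high barcodes (24.6 and 95.4 CPM) and -2.55 in Dcn-only barcodes (60.1 and 9.45 CPM). Serpinb1a, an inhibitor of neutrophil proteases, had a log2 ratio of 1 (0.77 to 1.26, 66.1 and 133 CPM), which lies at the 2-fold line itself, and -2.98 (106 and 12.5 CPM). Rnd3, a small GTPase that loosens actin fibers, had 1.76 (167 and 567 CPM) and -1.65 (108 and 33.9 CPM). Tenm3, an adhesion protein, had 1.19 (45.97 and 106 CPM) and -1.64 (61.6 and 19.05 CPM). What singled these genes out was the opposite direction in the parts, and the difference was not tested.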

How the results depend on the processing

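No paired analysis was possible because each condition has 1 pooled library. A value under an alternative counts as kept inside the 95% interval of the main value, and a number of genes when the larger is at most 50% above the smaller, so kept values can differ. Numbers of genes and scores could not be labelled reversed, and lists and genes only where the main ratio was at least 2-fold. Of 196 values of shares, counts and lists in members and Col1a2-high barcodes 174 were kept, 22 moved and 0 reversed. The 0 thus follows in part from this rule. Of 2619 values of named genes, scores and the same measures in Dcn-only barcodes 1926 were kept, 691 moved and 2 reversed. The log2 ratio of the share of members, 1.95, was 1.56 at a threshold of 0.05%, 2.14 at 0.2% and 1.82 at 0.5%. It was 2.24 with a stricter filter of 1000 genes and 10% mitochondrial UMIs, 1.52 without barcodes at 0.1% or more of Rhox5, Gng11 and Phgdh, and 1.77 in Col1a2-high members alone. With non-immune barcodes as denominator it was 1.71, and 2.66 per 100 non-immune barcodes outside the members, the few endothelial and mural ones included. The interferon-stimulated median of the members, 0.83, was 1.49 at a threshold of 0.5%, 1.64 without barcodes high in Rhox5, Gng11 and Phgdh, and 1.65 in Col1a2-high members. The chemokine median, 1.05, was 1.79 without those barcodes and 1.50 in Col1a2-high members. The members' 772 higher and 717 lower genes were 213 and 229 with 10 CPM added.

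In Col1a2-high barcodes the log2 ratio of the share, 1.77, was 2.03 with the stricter filter and 1.43 with Col1a2 at 0.3% or more. Their 625 higher and 615 lower genes were 314 and 268 with 10 CPM added, 1017 and 952 from 10 UMIs on, and 839 and 385 with TMM factors. Of 71 named genes at least 2-fold apart in Col1a2-high barcodes, 9 came under 2-fold in some alternative: Cd34, Col1a1, Cx3cl1, Dpt, Fosb, Gas6, Grem1, Mmp2 and Postn. In Dcn-only barcodes 3 of 13 did, namely Col3a1, Ly6a and Postn. Grem1 reversed to -0.22 in Col1a2-high barcodes with Col1a2 at 0.3% or more, and Postn to 0.20 in Dcn-only barcodes without those high in Rhox5, Gng11 and Phgdh. The cause was not tested. The small number of untreated Col1a2-high barcodes, 185, limits what genes of low level can show.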
